A study of Homo sapiens with 33 samples.

Results

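Genes for the receptors of glutamate, GABA, acetylcholine, serotonin, dopamine and noradrenaline were followed in human embryonic stem cells (ESCs) that had lost EZH2. They were taken by name from the gene tables (symbols that begin with GABR, GABBR, GRIA, GRIK, GRIN, GRM, CHRN, CHRM, HTR, DRD, ADRA or ADRB and go on with a subunit number, on chromosomes 1 to 22). The rule gave 93 of the 35805 genes in the RNA-seq table, and 475 of the 153958 promoter windows in the ChIP-seq table. Of these 93 genes, 87 encode receptors or receptor subunits. The other 6 share only the start of the name: *HTRA1*, *HTRA2*, *HTRA3* and *HTRA4* encode serine proteases, and *ADRBK1* and *ADRBK2* encode kinases that phosphorylate activated receptors. They were kept, as the rule takes them, and are counted apart where it matters. There were 3 AMPA, 5 kainate, 7 NMDA and 8 metabotropic glutamate receptor genes, 14 GABA-A and 2 GABA-B genes, 13 nicotinic and 5 muscarinic acetylcholine genes, 16 serotonin, 5 dopamine and 9 adrenergic genes.

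The cells were H9, an established human ESC line, grown on mouse feeder cells. *EZH2*+/+ ESCs (WT below) are the unedited parental cells. *EZH2*-/+ ESCs (Het) are a clone with 1 allele disrupted by Cas9, and *EZH2*-/- ESCs (Null) are a clone with both alleles disrupted. The *EZH2*-/- clone came from a heterozygous line that carries a doxycycline-inducible *EZH2* transgene and was kept without doxycycline, and *EZH2*-/-+*EZH2* ESCs (Null + EZH2) are that same clone with doxycycline, so both share any change fixed when the clone was made. Each genotype had 3 RNA-seq libraries from cells sorted for SSEA4, a surface marker of undifferentiated ESCs. ChIP-seq gave 1 value per promoter, genotype and mark (H3K27me3, H3K4me3, H3K27ac, H3K4me1 and input), which per the labels is a mean of 2 libraries, and EZH2 itself was measured in *EZH2*+/+ ESCs alone. Where cells of 1 clone stand for a genotype, clone and genotype cannot be told apart, and p-values measure only the spread between these libraries.

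Neurotransmitter receptors receive the chemical signals that neurons release. The ionotropic receptors (AMPA, kainate, NMDA, GABA-A, nicotinic and the HTR3 serotonin receptors) are ion channels built from several subunits, and the others are single proteins, or dimers, that act through G proteins. EZH2 is the enzyme of Polycomb repressive complex PRC2 that methylates lysine 27 of histone H3. In ESCs its product, H3K27me3, lies over CpG-rich promoters of genes that are silent until differentiation, often together with H3K4me3, a mark of CpG-rich promoters and of transcribed genes.

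The promoters differed in the density of CG pairs. RefSeq promoters (250 bases before to 50 bases after the start, GRCh38.p14) were matched to 70 of the 93 genes, and for 56 of these the RefSeq start lay inside the window whose chromatin is described below. The 43 of these promoters that carried H3K27me3 in WT ESCs had a median of 26 CG pairs in 300 bases, and the 13 without the mark had a median of 5. At least 10 CG pairs were found in 37 of the 43 (86%), in 3 of the 13 (23.1%) and in 56.4% of all 35116 promoters in the reference table. A CG pair reads the same on both strands and does not overlap another. The 250 bases before the start are shown for 6 genes on which results below turn, with CG pairs in capitals: *GRIK3* (chr1:37034516-37034765 on the minus strand), the shown promoter with most EZH2; *GABRA2* (chr4:46390301-46390550 on the minus strand), whose mRNA fell; *DRD1* (chr5:175444183-175444432 on the minus strand) and *GRIN2D* (chr19:48393418-48393667 on the plus strand), whose mRNA rose; *GRIA1* (chr5:153490420-153490669 on the plus strand), which differed between the Null and Null + EZH2 ESCs; and *CHRNA10* (chr11:3671385-3671634 on the minus strand), whose mRNA rose without H3K27me3.
GRIK3: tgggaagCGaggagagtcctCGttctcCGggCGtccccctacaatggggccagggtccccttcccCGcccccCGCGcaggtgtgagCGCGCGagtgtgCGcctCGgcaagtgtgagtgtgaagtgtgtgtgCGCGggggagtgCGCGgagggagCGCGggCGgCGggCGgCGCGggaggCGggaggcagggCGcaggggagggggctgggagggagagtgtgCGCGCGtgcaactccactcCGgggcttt
GABRA2: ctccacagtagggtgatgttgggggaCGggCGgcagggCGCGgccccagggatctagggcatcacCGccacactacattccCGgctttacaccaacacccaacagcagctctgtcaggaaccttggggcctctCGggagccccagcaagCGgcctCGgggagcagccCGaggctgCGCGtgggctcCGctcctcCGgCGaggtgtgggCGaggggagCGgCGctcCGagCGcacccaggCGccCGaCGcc
DRD1: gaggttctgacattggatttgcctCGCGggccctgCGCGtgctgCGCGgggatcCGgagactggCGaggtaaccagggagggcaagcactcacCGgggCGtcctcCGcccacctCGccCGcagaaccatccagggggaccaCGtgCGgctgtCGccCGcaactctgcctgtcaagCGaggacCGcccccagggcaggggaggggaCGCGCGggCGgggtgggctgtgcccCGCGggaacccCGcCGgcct
GRIN2D: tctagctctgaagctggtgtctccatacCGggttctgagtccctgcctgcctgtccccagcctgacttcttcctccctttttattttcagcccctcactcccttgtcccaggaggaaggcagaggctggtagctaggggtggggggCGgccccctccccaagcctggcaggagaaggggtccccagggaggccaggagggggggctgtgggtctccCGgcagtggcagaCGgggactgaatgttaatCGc
GRIA1: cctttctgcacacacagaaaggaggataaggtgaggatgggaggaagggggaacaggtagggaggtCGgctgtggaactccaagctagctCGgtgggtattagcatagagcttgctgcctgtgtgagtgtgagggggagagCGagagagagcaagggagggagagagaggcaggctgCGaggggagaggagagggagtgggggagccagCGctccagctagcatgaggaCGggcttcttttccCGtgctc
CHRNA10: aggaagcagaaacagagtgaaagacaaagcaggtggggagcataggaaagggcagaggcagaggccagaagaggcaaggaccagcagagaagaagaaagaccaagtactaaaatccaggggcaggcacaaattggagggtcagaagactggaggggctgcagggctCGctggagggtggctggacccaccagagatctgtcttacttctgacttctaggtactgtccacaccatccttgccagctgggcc
They hold 29, 23, 27, 5, 7 and 1 CG pairs in this order. At the 5 promoters with H3K27me3 these 250 bases span both CG-rich and CG-poor sequence, while H3K27me3 was measured over 5 kb.

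The RNA-seq libraries held 16587860 to 36589089 reads on genes, and 3 reads correspond to 0.0528 to 0.120 RPM (reads scaled to the total of the library). *EZH2* itself was measured at 59.5 to 68.6 RPM in WT, 45.7 to 55.4 RPM in Het, 8.65 to 11.5 RPM in Null and 256 to 385 RPM in Null + EZH2 ESCs, lowest in the libraries labelled Null. Markers of other lineages moved with the genotypes. The 10 mesoderm markers summed to 136 to 451 RPM in Null libraries. They summed to 89.1 to 135 RPM in WT, 54.0 to 93.9 RPM in Het and 73.1 to 108 RPM in Null + EZH2 libraries. The 6 endoderm markers summed to 162 to 465 RPM in Null libraries and to 22.5 to 49.0 RPM in WT libraries, but also to 453 RPM in 1 of the 3 Het libraries. The 14 neural markers, of the cell type in which most of these receptors act, summed to 250 to 282 RPM in WT libraries. Their totals were lower in Het (199 to 206 RPM), Null (161 to 209 RPM) and Null + EZH2 libraries (140 to 160 RPM). The 8 markers of undifferentiated ESCs summed to more in the edited clones (3180 to 3931 RPM) than in WT libraries (2305 to 2950 RPM). Of all these markers, only neural ones were at 0 in every library of a genotype, 1 in Het and 2 in Null + EZH2 ESCs. The part of these differences in the results below was not tested.

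H3K27me3 covered the promoters of most of these genes in WT ESCs. For each gene the window of 5 kb around a start site with the most H3K27me3 was used, and a promoter was called marked where H3K27me3 was over and input under 0.1 log2 RPKM, the threshold stated in the methods. By this rule 62 of 93 genes were marked (66.7%, Wilson interval 56.6 to 75.4%), against 17.5% of 35684 gene names. Among the 87 receptors it was 58, the same share. H3K4me3 lay with H3K27me3 at 52 promoters. The mark was alone at 10, H3K4me3 was alone at 9, and 22 had neither. The values near the threshold were 4.34 RPM at *GABRG1*, the highest of the unmarked genes, and 6.0 RPM at *CHRNB4*, the lowest of the marked ones. Taking the highest window of each gene makes the rule more inclusive than on single promoters. The share depends on the threshold, since a threshold of 1.1 log2 RPKM gives 48.4%. The share of all gene names at that threshold is not given here, so 48.4% cannot be set beside 17.5%.

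Families differed in their counts. All 3 AMPA, 7 NMDA, 8 metabotropic glutamate and 9 adrenergic genes were marked, as were 4 of 5 dopamine and 4 of 5 muscarinic genes. The counts were lower among GABA-A (8 of 14), kainate (3 of 5), nicotinic (5 of 13) and serotonin genes (6 of 16). For some genes the RefSeq start lay outside the window used. They were unmarked genes such as *GRIK2*, *GRIK5*, *HTR1D* and *HTR1F*, and marked ones such as *GRIK4* and *CHRM4*. Such a start lies in a window of the gene with no more H3K27me3 or in none, so these counts need not describe it. The family with the most H3K27me3 was that of the NMDA receptors, whose median was 18.9 RPM against 2.85 RPM in nicotinic, 3.32 RPM in serotonin and 1.96 RPM over all gene names. *GRIN2C* had 36.7 RPM and *GRIN1*, the subunit every NMDA receptor contains, had 36.0 RPM, while the lowest gene, *CHRNA10*, had 0.488 RPM. Members share windows in places, since those of *GABRA4* and *GABRB1*, which start back to back, overlap over 4825 bp and those of *GABRA6* and *GABRB2* over 3939 bp. They are therefore not independent measurements.

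**Figure D1:**
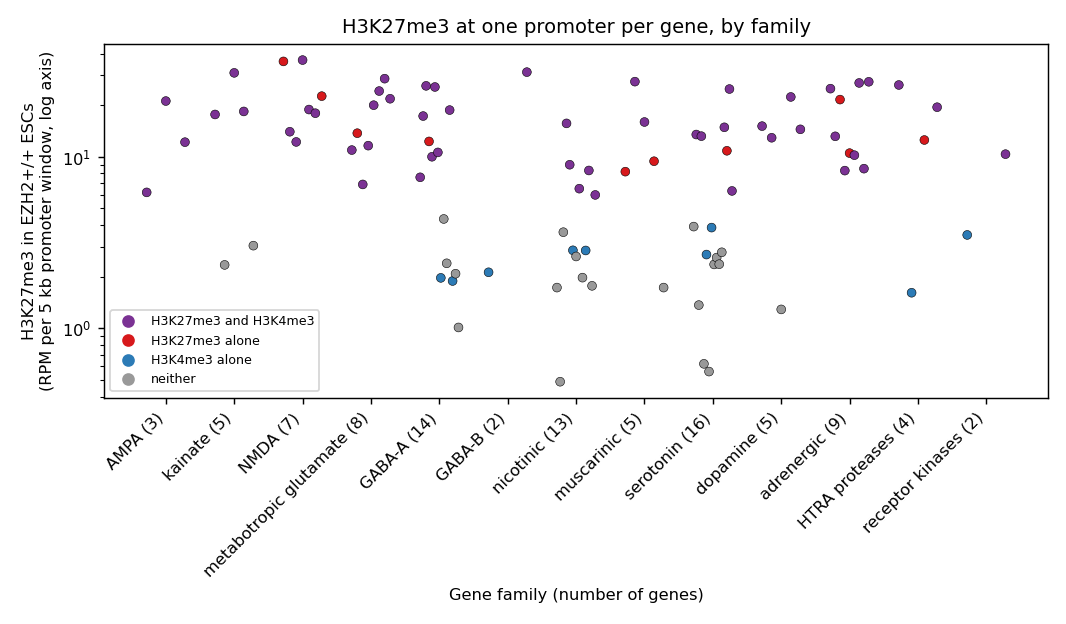
H3K27me3 in EZH2+/+ ESCs (RPM in a 5 kb window, log axis) at 1 promoter of each of the 93 genes, by family. Each point is a gene, coloured by the marks its promoter carries. All 7 NMDA genes lie above 10 RPM, and the nicotinic and serotonin genes spread from under 1 to over 10 RPM.

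EZH2 was most abundant over *GRIN2C* (chr17:74857372-74862372), with 7.39 RPM, higher than 99.6% of all gene names. The next were *GRIK3* with 3.68 RPM, *ADRB1*, the cardiac beta adrenergic receptor gene, with 3.65 RPM, *CHRM2* with 2.90 RPM and *ADRA1A* with 2.75 RPM. *GABBR2* and *HTRA1* had 2.71 RPM each and *ADRB3* had 2.5 RPM. These 8 promoters held 25 to 36.7 RPM of H3K27me3 in WT ESCs, in windows taken for their H3K27me3, and the median of marked genes was 14.7 RPM. *GRIA1*, at 0.182 RPM of EZH2, and *GRIN1*, at 1.94 RPM, show that the marked genes ranged widely, from 0.182 to 7.39 RPM with a median of 0.939 RPM. The median over all gene names was 0.290 RPM. EZH2 was a single library, so these values carry no replicate error.

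H3K27me3 fell at every marked promoter in Null ESCs. The median of the 62 marked genes was 14.7 RPM in WT and 15.7 RPM in Het ESCs, 0.929 RPM in Null ESCs, and 11.1 RPM once *EZH2* was expressed again. The change from WT to Null had a median of -3.72 on the log2(RPM + 0.1) scale, and -3.67 over all 6236 marked gene names. It was a fall of 1 or more at 62 of 62, as at 98.3% of all marked gene names. In Null ESCs 0 of the 62 stayed over the threshold, against 1.81% of all marked gene names, and 13 (21%, against 20.8%) stayed above their own input value. In Null + EZH2 ESCs 59 of 62 were over the threshold again (77.8% of all marked gene names), with a median difference from WT of -0.22 (-0.31 over all marked gene names). The direction of that small difference turns when values are centred on promoters outside the mark (0.03). In Het ESCs 60 of 62 were over the threshold (89.4% of all marked gene names) and the median difference was 0.08 (0.06 over all marked gene names). All marked gene names started lower in WT ESCs, at a median of 11.7 RPM against 14.7 RPM. Counts over a fixed threshold are therefore not a like comparison. No test was made between genotypes, as there is 1 value for each.

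Differences between members were large within this loss. The largest fall was at *GABRG3*, a GABA-A gamma subunit gene (chr15:26968944-26973944), which went from 18.7 to 0.354 RPM (-5.37 on the log2 scale). It was followed by 3 NMDA genes, *GRIN1* (-4.94), *GRIN3B* (-4.93) and *GRIN2C* (-4.91), and by *DRD2*, the gene of an inhibitory dopamine receptor (-4.84). The 0.354 RPM was the lowest Null value of the 62, under the median input of 1.29 RPM. At values this low the size and order of the falls depend on the pseudocount of 0.1 RPM. The smallest falls were at *GRIK1* (-1.98), *CHRNB4* (-2.58), *CHRM1* (-2.81), *HTR7* (-2.85) and *CHRNA7* (-2.89). All of these but *GRIK1* started from 6.0 to 8.2 RPM, near the threshold. *GRIK1* started from 17.7 RPM and kept 4.41 RPM in Null ESCs, the most of all 62.

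**Figure D2:**
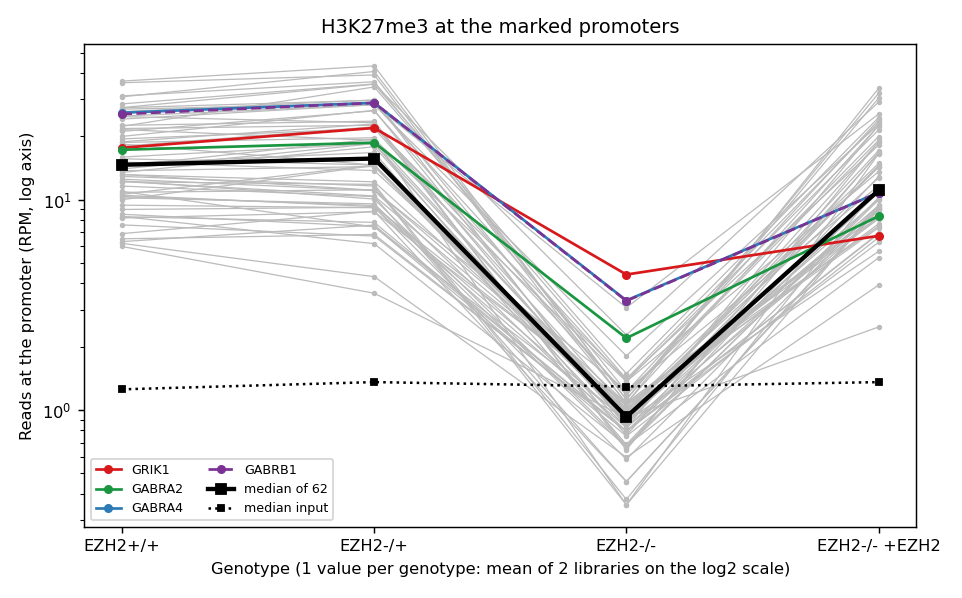
H3K27me3 (RPM, log axis) at the 62 marked promoters in the 4 genotypes, with 1 line per gene, the median in black and median input dotted. The median falls from 14.7 to 0.929 RPM and returns to 11.1 RPM, and GRIK1 and the 3 coloured GABA-A genes keep 2.2 to 4.41 RPM in EZH2-/- ESCs.

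Active marks moved less. H3K4me3 at the 62 marked promoters changed by a median of -0.08 from WT to Null ESCs, and the sign of this value depends on centring (0.14). It fell by 1 or more at 6, which were *GABRA2*, *GABRA4*, *GABRB1*, *GRIK1*, *HTR6* and *GRM5* (4.14% of all marked gene names). H3K27ac, a mark of active promoters that occupies the same lysine, rose by a median of 0.49 and was higher at 51 of 62. The median was 0.66 over all marked gene names, where 5556 of 6236 were higher. H3K27ac also rose at promoters without H3K27me3, by a median of 0.33 in these genes (21 of 31 higher). It was 0.24 over all gene names without H3K27me3 (19706 of 29448 higher). It rose by 1 or more at 11 of the 62 (17.7% against 23.2% of all marked gene names). These were *CHRM2* (1.75), *HTRA1* (1.39), *GABRA5* (1.39), *GABRG3* (1.36), *GRIN1* (1.30), *GRM8* (1.27), *GRIN2D* (1.25), *HTR1B* (1.13), *ADRA2A* (1.08), *CHRNB4* (1.04) and *GRM3* (1.03). H3K4me1 rose by a median of 0.29 and by 1 or more at 0 of the 62 (background 2.84%). Levels of H3K27ac stayed low throughout, with a median of 1.79 RPM in Null ESCs beside 1.29 RPM of input. In Het ESCs H3K4me3 was higher than in WT ESCs at 58 of 62, by a median of 0.70, beside 0.53 over all marked gene names (5647 of 6236 higher).

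At 4 marked promoters both H3K4me3 and H3K4me1 fell 1 log2 unit or more from WT to Null ESCs. H3K4me1 decreased by 1 or more at *GRIK1*, *GABRA2*, *GABRA4* and *GABRB1* only (4 of 62, against 0.385% of all marked gene names). *GRIK1* encodes a kainate receptor subunit on chromosome 21 (chr21:29937032-29942032), and the other genes are GABA-A subunits on chromosome 4 (*GABRA2* at chr4:46387539-46392539, *GABRA4* and *GABRB1* in overlapping windows from chr4:46991048-46996048). H3K4me3 at *GRIK1* was 10.2 RPM in WT, 18.6 RPM in Het, 1.33 RPM in Null and 3.70 RPM in Null + EZH2 ESCs, and H3K4me1 was 2.5 RPM in WT, 2.26 RPM in Het, 0.260 RPM in Null and 0.671 RPM in Null + EZH2 ESCs. H3K4me3 at *GABRA2* was 9.33 RPM in WT, 14.3 RPM in Het, 1.02 RPM in Null and 3.33 RPM in Null + EZH2 ESCs, and H3K4me1 was 2.4 RPM in WT, 2.46 RPM in Het, 0.493 RPM in Null and 0.729 RPM in Null + EZH2 ESCs. The values fell in the Null clone, returned in part with doxycycline and were not low in Het ESCs.

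These 4 genes were also among the 5 whose H3K27me3 was at least 1 lower in Null + EZH2 than in WT ESCs, the fifth being *CHRNB4* (6.96% of all marked gene names). H3K27me3 at *GRIK1* was 17.7 RPM in WT, 22 RPM in Het, 4.41 RPM in Null and 6.74 RPM in Null + EZH2 ESCs. At *GABRA2* it was 17.3 RPM in WT, 18.7 RPM in Het, 2.2 RPM in Null and 8.35 RPM in Null + EZH2 ESCs, and at *GABRA4* it was 25.9 RPM in WT, 28.9 RPM in Het, 3.32 RPM in Null and 10.8 RPM in Null + EZH2 ESCs. The unmarked neighbour *GABRG1* (chr4:46121581-46126581), named here after its values were seen, lost 2.14 of H3K4me3 and 3.25 of H3K4me1 on the log2 scale as well. Input at these 5 windows changed by -0.17 (*GABRA4*) to 0.26 (*GABRA2*). *GABRA4*, *GABRB1* and *GABRG1* had too few reads to be tested. *GABRA4* had 9 reads, 8 of them in 1 Het library, and *GABRG1* 13 reads over the WT and Het libraries together and both had 0 in all 6 libraries of the Null clone, while *GABRB1* had no read in any library.

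**Figure D3:**
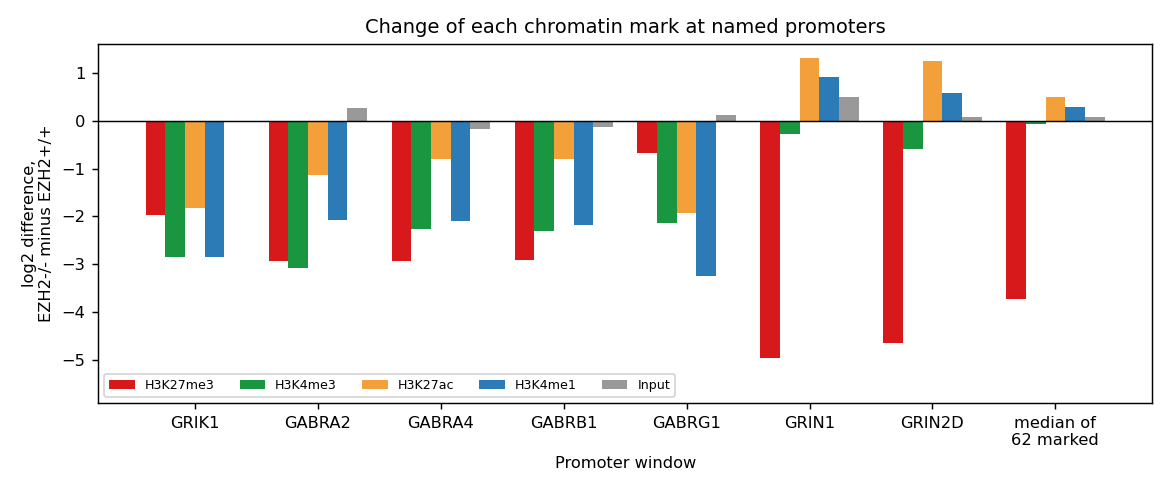
Change of each mark (log2 difference, EZH2-/- minus EZH2+/+ ESCs) at 7 named promoters and the median of the 62 marked promoters. GRIK1 and the GABA-A genes of chromosome 4 lost H3K4me3, H3K27ac and H3K4me1, whereas H3K27ac was higher at GRIN1 and GRIN2D.

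Few of these genes were transcribed at more than a low level. Of the 93, 61 (56 of 87 receptors) reached a mean of 0.1 RPM over the 12 libraries and could be tested. No read was found in any library for 9 (*GABRB1*, *GABRR3*, *CHRNA2*, *CHRNB3*, *HTR1F*, *HTR3B*, *HTR3D*, *HTR3E* and *HTR5A*), and 14, these included, had at most 3 reads in every library. Levels of different genes were compared per kb of exon, as the mean RPKM over the 12 libraries. The highest were 2 genes that are not receptors, *ADRBK1* (7.42 RPKM) and the mitochondrial protease gene *HTRA2* (6.62 RPKM). Among the highest receptor genes were *GABBR1*, the subunit of the GABA-B receptor that binds GABA (5.28 RPKM), *GRIK5* of the kainate family (5.00 RPKM) and *ADRA2C*, an inhibitory adrenergic receptor (4.28 RPKM). Then came the serotonin receptors *HTR1D* (3.28 RPKM), *HTR7* (2.73 RPKM) and *HTR3A* (1.85 RPKM) and the nicotinic subunits *CHRNB1* (2.43 RPKM) and *CHRNA5* (2.41 RPKM). The other families stayed lower, with *GRIN2D* highest among the NMDA genes (1.30 RPKM), *GRM4* among the metabotropic glutamate genes (0.659 RPKM), *DRD2* among the dopamine genes (0.443 RPKM), *CHRM3* among the muscarinic genes (0.198 RPKM) and *GRIA1* among the AMPA genes (0.128 RPKM).

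The comparison of Null with Null + EZH2 ESCs asks which genes respond when *EZH2* is expressed again in the same clone. These ESCs also differ in doxycycline, and *EZH2* mRNA was above its WT level (256 to 385 RPM against 59.5 to 68.6 RPM). Effects of the drug and of this level cannot be told apart from those of renewed expression. The comparison was made in limma across all 12 libraries, with Benjamini-Hochberg adjustment over 20608 tested genes. Of 61 tested genes, 2 were higher in Null ESCs (background 2.63% of all tested genes) and 0 were lower (background 0.524%) at an adjusted p under 0.05, 3.28% in all (background 3.15%). An unadjusted p under 0.05 was found for 14 higher (background 10.8%) and 4 lower genes (background 6.0%). With library number as a blocking term, 5 were higher (background 6.19%) and 1 was lower (background 3.21%), against 9.4% of all genes in either direction. Among the genes added were *ADRA1B* (1.29, adjusted p = 0.0397) and *DRD1* (1.25, adjusted p = 0.0308), higher, and *CHRNB1* (-0.68, adjusted p = 0.0195), lower.

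*GRIA1*, the AMPA receptor subunit of fast excitatory synapses, was one of the pair. It was at 1.39, 1.45 and 2.02 RPM in Null and 0.334, 0.375 and 0.240 RPM in Null + EZH2 libraries, without overlap, and the difference on the log2(RPM + 0.1) scale was 2.04 ± 0.36 (SE, adjusted p = 0.0107). The WT libraries, at 2.31, 1.32 and 1.07 RPM, overlapped those of Null ESCs, and the difference between Null and WT did not pass (0.10 ± 0.36 SE, adjusted p = 0.859). The Het libraries were low, at 0.784, 0.346 and 0.338 RPM. *GRIN1* was at 0.281, 0.413 and 0.475 RPM in Null and 0.0257, 0.107 and 0.0400 RPM in Null + EZH2 libraries, a difference of 1.65 ± 0.33 (SE, adjusted p = 0.0185). Its reads were few, 54 in the 3 Null libraries against 6 in Null + EZH2 and 8 in WT libraries, and the counting ratios were 6.33 (exact interval 2.73 to 18.0) and 6.11 (2.89 to 14.9). *GRIN1* overlaps *LRRC26* on the other strand, and reads were counted without strand. The call of *GRIN1* was lost on leaving out replicate 2 or 3 of Null or replicate 1 or 3 of Null + EZH2 ESCs, and that of *GRIA1* on leaving out replicate 3 of Null ESCs.

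Against the parental WT ESCs more genes differed, in both directions. In Null ESCs 12 of the 61 tested genes were higher (19.7%, background 12.6%) and 14 were lower (23%, background 18.8%), 26 in all (42.6%, background 31.4%). Among the 56 tested receptors the counts were 12 and 13. The median log2 difference of the 61 was -0.12 and that of all tested genes -0.13, which scaling by median ratios moved to -0.01. That scaling turned the balance over all tested genes to 16.4% higher and 13.7% lower, and gave 13 higher and 14 lower of the 61. In bulk RNA, fewer cells that express a gene and less RNA per cell cannot be told apart. Counts per family were small. Of the tested genes, 2 of 3 muscarinic genes were higher and none lower, 2 of 5 serotonin genes were lower and none higher, and NMDA (2 higher and 1 lower of 7), GABA-A (2 and 2 of 7) and nicotinic genes (2 and 3 of 9) went both ways. With library number as a blocking term there were 14 higher (background 17.3%) and 18 lower (background 28%), where 45.3% of all genes were called. Added were, among others, *CHRNB4*, higher (0.74, adjusted p = 0.0484), and *GRM8* (-1.09, adjusted p = 0.0397), *CHRNA7* (-0.55, adjusted p = 0.0267), *CHRNA3* (-0.75, adjusted p = 0.0157) and *GRIK5* (-0.54, adjusted p = 0.00556), lower.

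**Figure D4:**
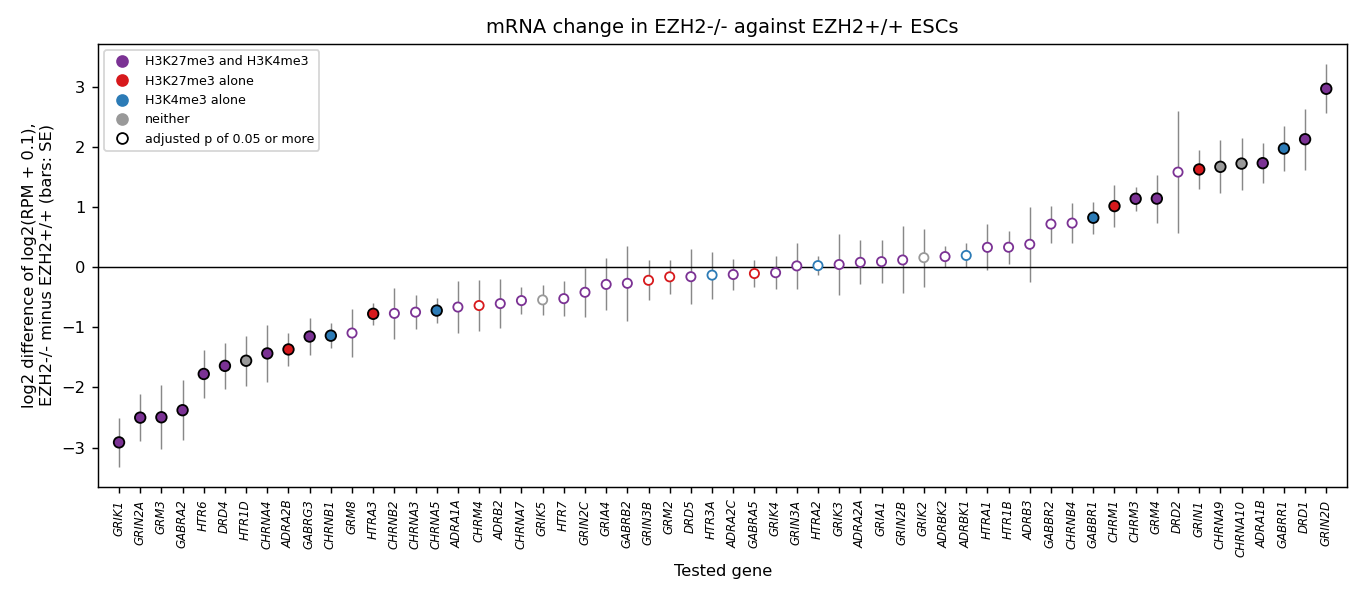
Difference in mRNA between EZH2-/- and EZH2+/+ ESCs (log2(RPM + 0.1) scale, points with SE) for 58 tested genes in order of size, coloured by promoter marks, filled where the adjusted p was under 0.05. Of these genes 11 are filled above zero and 13 below, from GRIN2D (2.97) to GRIK1 (-2.91).

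Among ionotropic glutamate receptors, the NMDA subunits moved apart. *GRIN2D*, a subunit known from embryonic brain and interneurons, was at 1.91, 1.75 and 1.94 RPM in WT and 11.2, 16.6 and 19.5 RPM in Null libraries, a rise of 2.97 ± 0.41 (SE, adjusted p = 0.000311). No Null library came near the parental level, and Null + EZH2 libraries, at 10.9, 12.4 and 4.04 RPM, stayed above it as well. *GRIN2A*, the subunit that replaces others at mature synapses, went the other way, from 9.44, 5.50 and 4.55 RPM to 1.81, 0.976 and 0.564 RPM (-2.50 ± 0.39 SE, adjusted p = 0.000681). Both promoters were marked in WT ESCs and both lost the mark, from 18.9 to 0.663 RPM at *GRIN2D* and from 14.0 to 0.976 RPM at *GRIN2A*. *GRIN1* rose by 1.63 ± 0.33 (SE, adjusted p = 0.00282). *GRIN2C*, with the most H3K27me3 and EZH2 of all, was low, at 0.244, 0.203 and 0.284 RPM in WT and 0.158, 0.113 and 0.208 RPM in Null libraries (-0.41 ± 0.40 SE, adjusted p = 0.462). *GRIK1* fell from 1.15, 0.888 and 0.459 RPM to 0.0176, 0.0375 and 0 RPM (-2.91 ± 0.41 SE, adjusted p = 0.000333), which was 108 reads against 3, a counting ratio of 0.0252 (exact interval 0.00511 to 0.0755). *GRIK1* overlaps *BACH1* and *GRIK1-AS1*, whose reads could not be told apart from its own. For genes with so few reads the fitted change depends on the pseudocount.

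Among metabotropic glutamate receptors, *GRM3* was one of 2 that fell and *GRM4* rose. *GRM3* encodes a receptor that dampens glutamate release and went from 4.75, 1.37 and 2.38 RPM to 0.317, 0.544 and 0.267 RPM (-2.50 ± 0.53 SE, adjusted p = 0.00416). *GRM4* was at 8.97, 5.86 and 5.88 RPM in WT and 19.1, 14.3 and 12.5 RPM in Null libraries (1.15 ± 0.40 SE, adjusted p = 0.0450). The libraries of these groups did not overlap. The *GRM4* call was lost in 9 of 20 alternatives, among them those without replicate 2 or 3 of WT, any 1 Null library, replicate 1 or 2 of Het or replicate 2 of Null + EZH2 ESCs.

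Among GABA receptors, *GABBR1* and *GABRR1* were among those that rose, and *GABRA2* and *GABRG3* fell. *GABBR1*, one of the most abundant receptor mRNAs, was at 36.0, 32.4 and 31.8 RPM in WT and 74.4, 52.4 and 53.2 RPM in Null libraries (0.83 ± 0.27 SE, adjusted p = 0.0331). It overlaps *UBD* and *OR2H2*. Its call was lost on leaving out any 1 of these 6 libraries. Its most marked window held only 2.12 RPM of H3K27me3, so none of its windows was marked. The RefSeq start of *GABBR1* lay outside that window. *GABRR1*, a rho subunit known from the retina, went from 0.133, 0.101 and 0.153 RPM to 0.915, 0.563 and 0.980 RPM (1.98 ± 0.38 SE, adjusted p = 0.00225). None of the *GABRR1* windows carried the mark, and its RefSeq start lay outside the window used. *GABRA2* went from 0.289, 0.558 and 0.546 RPM to 0.0176, 0 and 0 RPM (-2.38 ± 0.50 SE, adjusted p = 0.00357). That is 60 reads against 1, a counting ratio of 0.0151 (exact interval 0.000376 to 0.0874), while the Het libraries ranged widely, at 0.0979, 0.259 and 0.765 RPM.

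Among acetylcholine receptors, *CHRNA9* and *CHRNA10*, whose products together form the receptor of inner ear hair cells, both rose. *CHRNA9* went from 0.533, 0.228 and 0.306 RPM to 1.13, 1.43 and 1.37 RPM (1.67 ± 0.44 SE, adjusted p = 0.0128) and *CHRNA10* from 0.244, 0.228 and 0.481 RPM to 0.897, 1.26 and 1.66 RPM (1.73 ± 0.43 SE, adjusted p = 0.00981). Neither promoter was marked, and *CHRNA10* overlaps *NUP98*, so reads of both could be mixed. *CHRNB1*, a subunit of the muscle receptor, fell from 10.2, 14.9 and 16 RPM to 5.73, 5.39 and 7.18 RPM (-1.14 ± 0.21 SE, adjusted p = 0.00158). *CHRNA5* (-0.72 ± 0.20 SE, adjusted p = 0.0179) and *CHRNA4* (-1.43 ± 0.47 SE, adjusted p = 0.0344) were lower too, *CHRNA4* with overlap between the libraries. The *CHRNA5* call was lost without replicate 1 or 2 of WT or replicate 2 of Null ESCs, that of *CHRNA4* without replicate 1 or 3 of WT or replicate 1 or 2 of Null ESCs, and that of *CHRNA9* without replicate 2 of WT ESCs. The muscarinic genes *CHRM3* and *CHRM1*, whose receptors act through calcium, were higher. *CHRM3* was at 1.62, 2.28 and 1.92 RPM in WT and 4.66, 4.34 and 4.13 RPM in Null libraries (1.14 ± 0.20 SE, adjusted p = 0.00122), and *CHRM1* was higher by 1.02 ± 0.35 (SE, adjusted p = 0.0421), a call lost in 11 of 19 alternatives, among them those without replicate 2 or 3 of WT or Null, replicate 1 or 2 of Het or replicate 2 of Null + EZH2 ESCs. *CHRM3* overlaps *CHRM3-AS1* and *CHRM3-AS2*, and *CHRNA5* overlaps *CHRNA3*.

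Among monoamine receptors, *DRD1*, the stimulatory dopamine receptor of the striatum, rose from 0.289, 0.279 and 0.109 RPM to 1.65, 1.31 and 0.950 RPM (2.13 ± 0.51 SE, adjusted p = 0.00734), and *DRD4*, an inhibitory one, fell from 1.33, 0.811 and 1.03 RPM to 0.176, 0.206 and 0.475 RPM (-1.64 ± 0.39 SE, adjusted p = 0.00728). *DRD2* varied within genotypes by more than between them, at 2.69, 0.228 and 0.262 RPM in WT, 8.50, 0.799 and 0.463 RPM in Het and 0.880, 4.77 and 1.78 RPM in Null libraries, and did not pass (1.59 ± 1.02 SE, adjusted p = 0.255). The serotonin receptors *HTR1D* and *HTR6* fell. *HTR1D* went from 14.5, 15.8 and 19.9 RPM to 6.51, 5.37 and 4.99 RPM (-1.55 ± 0.42 SE, adjusted p = 0.0140) and *HTR6* from 0.577, 0.304 and 0.524 RPM to 0.0880, 0.0751 and 0.0297 RPM (-1.77 ± 0.41 SE, adjusted p = 0.00615). The RefSeq start of *HTR1D* lies outside its only window, so its chromatin class does not describe that start. Of the adrenergic genes *ADRA1B* rose from 0.0666, 0.0507 and 0.0219 RPM to 0.299, 0.563 and 0.327 RPM (1.74 ± 0.33 SE, adjusted p = 0.00226) and *ADRA2B* fell from 6.66, 4.84 and 6.38 RPM to 2.43, 1.48 and 3.06 RPM (-1.37 ± 0.27 SE, adjusted p = 0.00263). Of the 6 genes that are not receptors, *HTRA3* fell (-0.77 ± 0.18 SE, adjusted p = 0.00742).

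**Figure D5:**
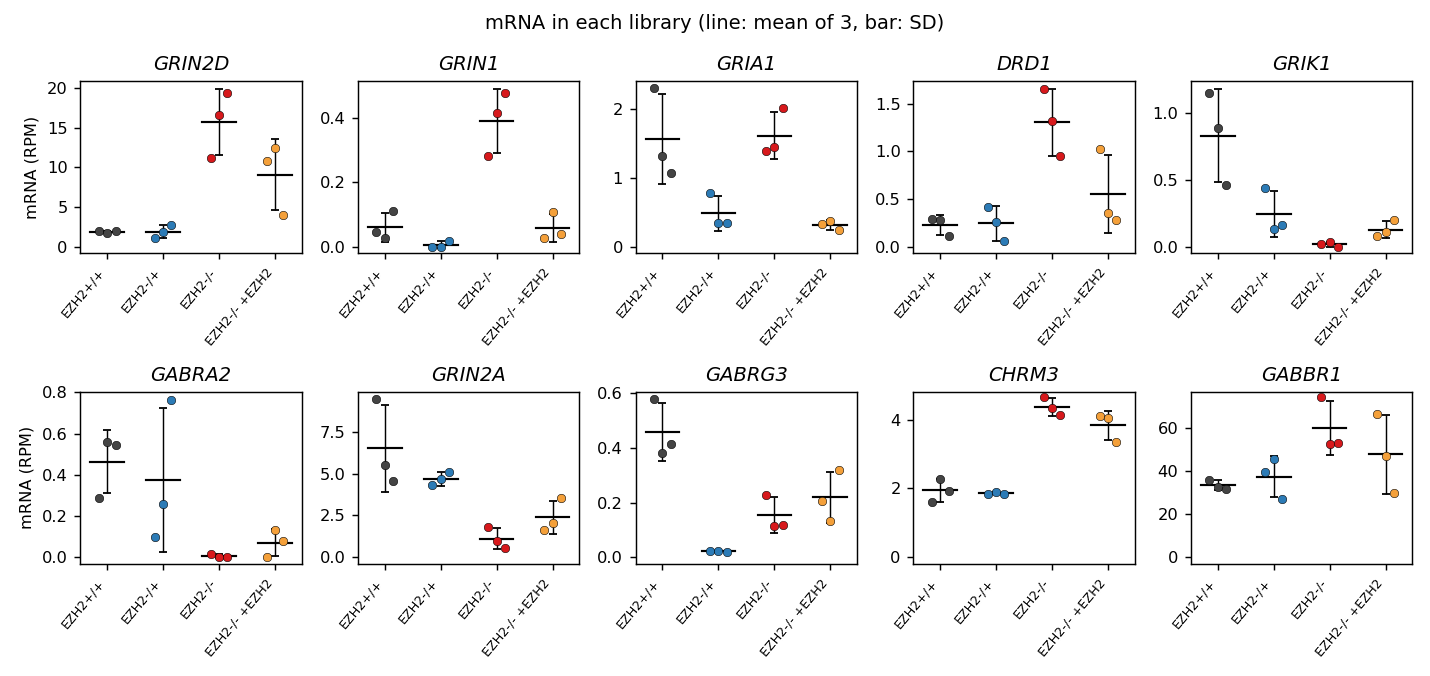
mRNA (RPM) of 10 genes in each library of the 4 genotypes, with the mean and SD of 3 libraries. The means of GRIN2D, GRIN1 and DRD1 are highest in EZH2-/- ESCs, GRIK1, GABRA2 and GRIN2A are low in both states of the EZH2-/- clone, and GABRG3 is lowest in EZH2-/+ ESCs.

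The Null + EZH2 ESCs ask what remained different from the parental cells once *EZH2* was expressed again, above its WT level and under doxycycline. In Null + EZH2 against WT ESCs 2 genes were higher (background 3.4%) and 8 lower (background 6.9%), which is 10 of 61 (16.4%, background 10.3%). Blocking on library number gave 3 higher (background 6.26%) and 14 lower (background 16.1%), 17 in all (background 22.4%). Among the added calls, these were lower in Null + EZH2 ESCs: *HTR1D* (-1.06, adjusted p = 0.0335), *GRIK3* (-1.18, adjusted p = 0.04999, at the threshold), *ADRA2C* (-0.75, adjusted p = 0.0263), *CHRNA3* (-0.68, adjusted p = 0.0445) and *CHRNA4* (-1.50, adjusted p = 0.0220). Scaling by median ratios gave 7 calls, where 5.0% of all genes were higher and 4.26% lower, and ended those of *ADRA2B*, *GABRA2*, *GRIN2A* and *GRM8*. Higher were *GRIN2D* (2.07 ± 0.41 SE, adjusted p = 0.00787) and *CHRM3* (0.96 ± 0.20 SE, adjusted p = 0.0101). Lower were *GRIA1* (-1.94 ± 0.36 SE, adjusted p = 0.00555), *GRIK1* (-1.99 ± 0.41 SE, adjusted p = 0.00930), *HTRA3* (-0.94 ± 0.18 SE, adjusted p = 0.00741), *GRM3* (-2.08 ± 0.53 SE, adjusted p = 0.0271), *GRM8* (-1.45 ± 0.40 SE, adjusted p = 0.0368), *ADRA2B* (-0.98 ± 0.27 SE, adjusted p = 0.0371), *GRIN2A* (-1.41 ± 0.39 SE, adjusted p = 0.0395) and *GABRA2* (-1.76 ± 0.50 SE, adjusted p = 0.0397). Both this comparison and that of Null with WT ESCs use the same WT libraries. The count was 3 without replicate 1 and 6 without replicate 3 of WT ESCs, 5 without replicate 1 and 4 without replicate 2 of Null + EZH2 ESCs, and up to 14 without replicate 3 of Het ESCs.

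In Het against WT ESCs 1 of 61 genes was called (1.64%, background 1.15%), and it was lower (background 0.966%, and 0.18% for higher). This was *GABRG3*, which had 1 read in each Het library (0.0245, 0.0216 and 0.0178 RPM) and 0.577, 0.380 and 0.415 RPM in WT libraries (-2.18 ± 0.32 SE, adjusted p = 0.00635). Over 3 libraries each this is 3 reads against 60, a counting ratio of 0.0454 (exact interval 0.00911 to 0.139). Its promoter kept H3K27me3 in Het ESCs (19.7 RPM against 18.7 RPM in WT). In Null ESCs, where the promoter held 0.354 RPM, *GABRG3* was at 0.229, 0.113 and 0.119 RPM, again below the parental level (-1.15 ± 0.32 SE, adjusted p = 0.0155), a call lost without replicate 1 of WT or replicate 2 of Null ESCs. Blocking on library number gave 3 calls (background 2.88%), with *GRIA1*, lower (-1.51, adjusted p = 0.0315), among them (background 2.16% lower and 0.718% higher).

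A minority of the genes that lost H3K27me3 had higher mRNA. Of 62 marked genes 47 could be tested, and in Null against WT ESCs 7 were higher and 11 lower, 14.9% and 23.4% (19.1% and 18.6% of the 4665 tested genes with a marked promoter). Their median log2 difference was -0.16, and 0.00 over those 4665 genes. Of the 14 tested genes without the mark, 5 were higher and 3 lower, beside 10.7% and 18.8% of all tested genes without it. With library number as a blocking term, 8 marked genes were higher and 14 lower (24.2% and 25.2% of the 4665). In Null against Null + EZH2 ESCs 2 of the 47 were higher and 0 lower, 4.26% against 7.25% higher and 0.45% lower of the 4665. With the blocking term 4 were higher and 0 lower (15.9% and 2.19% of the 4665). The median difference without it was 0.17, beside 0.25 over those genes. The 7 marked genes that rose were *GRIN2D*, *DRD1*, *ADRA1B*, *GRIN1*, *GRM4*, *CHRM3* and *CHRM1*, and H3K27ac at their promoters changed by 1.25, 0.72, 0.37, 1.30, 0.95, -0.26 and 0.17. At the 5 marked genes with the largest falls of mRNA it changed by -1.82 (*GRIK1*), 0.49 (*GRIN2A*), 1.03 (*GRM3*), -1.13 (*GABRA2*) and -0.15 (*HTR6*).

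Genes that work with the receptors also changed in both directions. Of 17 receptor subunits of related families outside the name rule 14 could be tested, and 4 were higher (*GABRE*, *GABRQ*, *GABRP* and *HTR2C*) and 2 lower (*GLRA1* among them) in Null against WT ESCs. The shares over all tested genes were 12.6% higher and 18.8% lower. Among 30 tested partners and scaffolds, 3 were higher and 9 lower. *NETO1*, an auxiliary subunit of kainate receptors, fell from a mean of 1.05 to 0.00626 RPM (-3.35 ± 0.36, adjusted p = 6.78e-05). It was also lower than in Null + EZH2 ESCs, where it was at 0.601 RPM (adjusted p = 0.00287). In that comparison 1 of the 30 was higher and 1, *NETO1*, lower (2.63% and 0.524% of all tested genes). Against WT ESCs *NLGN3*, a synaptic adhesion gene, fell from 18.2 to 2.80 RPM (adjusted p = 0.000232), and the scaffold gene *DLG4* from 31.5 to 12.3 RPM (adjusted p = 0.000504). Among 22 tested genes of transmitter synthesis, transport and breakdown, 5 were higher and 1 lower. *GAD2*, which makes GABA, was at 1.57 against 0.0296 RPM (adjusted p = 0.000361), *ACHE*, which breaks down acetylcholine, at 22.3 against 4.07 RPM (adjusted p = 0.00158) and *DDC*, which makes dopamine and serotonin, at 0.499 against 0.00845 RPM (adjusted p = 0.000190). Against Null + EZH2 ESCs the glutamate transporter gene *SLC1A3* (16.2 against 7.84 RPM, adjusted p = 0.00747) and *DDC* were higher, and none of these 22 was lower (2.63% and 0.524% of all tested genes).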

How the data were processed

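RNA-seq (12 libraries, 3 of each of 4 genotypes) and ChIP-seq (21 columns) of H9 ESCs were analysed. Per the methods, the authors trimmed RNA reads with Trim Galore 0.4.0, aligned them to GRCh38 with TopHat2 2.0.12 and counted them over Ensembl release 70 genes in SeqMonk, ignoring strand. ChIP reads were aligned with Bowtie2 2.2.5, extended by 200 bp and counted without duplicates within 2.5 kb of start sites. All deposited values are log2 RPM, with genes without reads set to 0.9 of 1 read. Each histone and input column is the mean of 2 libraries on the log2 scale, per the labels and the steps of the lowest values (a figure legend of the study gives another number), so no ChIP test was made.

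Here RPM was recovered from the deposited log2 values, and whole reads from its steps (all values below 1000 reads lay within 0.02 of a whole number). Genes whose mean reached 0.1 RPM were tested on log2(RPM + 0.1) in limma 3.58.1 (R 4.3.3), with all 12 libraries in 1 fit, no block, and Benjamini-Hochberg adjustment at 0.05. Limma was the planned test. Of the alternatives, count models on the recovered reads were not run, and voom weights on those reads were used instead. Fold changes on this scale understate those of low genes. Intervals are 95%. The exact intervals cover counting error of reads only. The Wilson interval treats genes as independent draws, which genes with shared windows are not. Exon lengths for RPKM were summed over the exon union of GENCODE release 44 genes. Tests were tried on simulated data first. Library numbers paired the samples, since all 18 pairs of libraries with the same number deviated together (correlation of deviations 0.107 to 0.560, median 0.316). Other pairs had a median of -0.24, which is no separate evidence, as deviations from the mean of a genotype cancel within it. Counts with the number as a block are therefore given beside each comparison, with values for the named genes whose call the block changes.

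Genes were named where called in a comparison, with the largest changes among marked genes and with the most EZH2, and by level. *GABRG1* was added after its values were seen, and a few genes are not reported here by name. The genes and lists (related subunits, partners, transmitter metabolism and markers of ESCs, neural cells, mesoderm and endoderm) were chosen with earlier results of these data known. Of the 93 genes, 45 overlap another listed gene, whose reads cannot be told apart without strand. Python 3.11.15 was used for the rest.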

Additional observations from a re-analysis of the deposited data

How the results depend on the processing

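Of 39 calls of single genes, 20 were kept under every alternative in which the gene was tested, and 0 reversed. Genes with a mean under 1 RPM were not tested at a minimum of 1 RPM, which is not counted as a loss here. The number of genes higher in Null than in Null + EZH2 ESCs (2) became 5 with a pseudocount of 1 RPM, 0 with a minimum mean of 1 RPM, which leaves 34 of these genes, 5 with the replicate block, and, chosen after seeing the data, 1 with voom weights on the recovered reads and 4 with these weights and the block. It ranged from 0 to 5 on leaving out 1 library. The number lower (0) became 1 with the replicate block and 1 with voom weights and the block. A minimum of 1 RPM gave 4 higher and 8 lower in Null against WT ESCs, and leaving out 1 library 8 to 12 and 10 to 16. In Het ESCs the count (1) was 0 at a minimum of 1 RPM, 3 with the replicate block, 0 with only these 2 genotypes, 3 with voom weights and the block, and 1 to 2 on leaving out 1 library. In Null + EZH2 against WT ESCs the count (10) was 5 with no filter, 17 with the replicate block, and 3 to 14 on leaving out 1 library. The block ended no call. The median H3K27me3 change in Null ESCs was -3.44 over the mean of all windows, -2.96 with a pseudocount of 1 RPM and -3.05 when centred on promoters outside the mark. Centring also gave 0.033 (reversed) for Null + EZH2 and 0.27 for Het ESCs, and 0.14 for H3K4me3 in Null ESCs. At 1.1 log2 RPKM 48.4% of the genes were marked, while the 17.5% of all gene names belongs to 0.1 log2 RPKM. The cause of these shifts was not tested, beyond fewer genes tested at 1 RPM. The planned edgeR and DESeq2 fits were not run. Voom weights on the recovered reads stand in their place. Depth limits the genes with few reads, and ChIP values have no replicate error.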
